A study of Homo sapiens with 8 samples.

Results

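TRPV6, the calcium channel of the apical epithelial membrane, and 9 other genes of calcium handling in epithelial cells were followed in mRNA-seq libraries of HCT-8 human colon cancer cells. The 10 genes were picked by name because TRPV6 was seen in an earlier analysis of these same libraries to be low in HCT-8/FU and in conditioned medium (CM), so the TRPV6 values are given as a description with no test. They are 10 of the 64253 genes in the count tables, and 9 of them passed the filter on low counts that left 20305 genes for testing. The gene that did not pass was CASR, the calcium-sensing receptor, with 0 counts in all 8 libraries.

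HCT-8 is an established line from a human colorectal adenocarcinoma, and HCT-8/FU is its paired line that resists 5-fluorouracil (5-FU), a drug that blocks thymidylate synthesis. The cells fell into 4 groups of 2 replicates: HCT-8 in unconditioned medium, HCT-8/FU in unconditioned medium, and finally HCT-8 cells given the CM of HCT-8 or that of HCT-8/FU. Differences between the CM groups are always those of CM of HCT-8/FU from CM of HCT-8. CM was medium in which HCT-8 or HCT-8/FU cells had been cultivated for 48 h, and no label says that 5-FU was present. HCT-8/FU is 1 resistant line, so its differences from HCT-8 belong to a pair of lines, and the p-values measure only the spread between these libraries, since no label says that the replicates were separate cultures. The libraries held 5804124 to 34881349 counts on genes. In 3 of them, HCT-8 replicate 1, HCT-8/FU replicate 2 and CM of HCT-8 replicate 1, over 15% and up to 29.6% of the records were not aligned, against 3.58% to 4.43% in the other 5. Summed over 10 intestinal epithelial markers, the level was 8553 to 10637 CPM (counts per 1000000 counts of the scaled library) in every library, against 12.5 to 22.3 CPM over 6 fibroblast markers, with COL1A2 at 0, and 1.04 to 2.64 CPM over 5 leukocyte markers, with PTPRC and CD3E at 0.

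Intestinal epithelium takes up calcium across the cell in steps: TRPV6 lets calcium in from the lumen, binding proteins carry it through the cytosol, and plasma membrane calcium pumps push it out on the other side. Active vitamin D drives this route through its receptor VDR, which turns on TRPV6 and also CYP24A1, the enzyme that breaks active vitamin D down. A separate route is store-operated entry, in which STIM1 senses calcium loss from the endoplasmic reticulum and opens the ORAI1 channel at the plasma membrane.

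Promoter bases are shown for TRPV6, STIM1 and ATP2B1, which had the largest differences below among the members with a RefSeq promoter entry, so that the promoters can be read beside the levels. Each run covers the 250 bases before a RefSeq start on the gene's own strand, 5′ to 3′ (GRCh38.p14). RefSeq gave 4 such windows for STIM1 and 2 for ATP2B1, and the one with the fewest bases in exons of the gene was taken. The STIM1 window lies downstream of the first annotated start of that gene (3854527). Capitals mark GGGCGG, the core of a GC box, or its reverse complement CCGCCC.
TRPV6, chr7:142885746-142885995, minus strand: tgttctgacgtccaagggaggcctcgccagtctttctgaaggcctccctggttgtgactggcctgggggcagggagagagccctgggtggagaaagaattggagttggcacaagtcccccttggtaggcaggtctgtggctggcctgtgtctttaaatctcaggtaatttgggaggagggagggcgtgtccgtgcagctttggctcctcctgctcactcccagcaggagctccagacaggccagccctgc
STIM1, chr11:3854913-3855162, plus strand: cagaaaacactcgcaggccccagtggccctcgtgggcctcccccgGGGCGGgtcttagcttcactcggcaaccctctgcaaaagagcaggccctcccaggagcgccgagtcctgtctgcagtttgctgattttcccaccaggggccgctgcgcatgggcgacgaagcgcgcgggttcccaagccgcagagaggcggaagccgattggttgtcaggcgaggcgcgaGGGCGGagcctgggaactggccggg
ATP2B1, chr12:89709367-89709616, minus strand: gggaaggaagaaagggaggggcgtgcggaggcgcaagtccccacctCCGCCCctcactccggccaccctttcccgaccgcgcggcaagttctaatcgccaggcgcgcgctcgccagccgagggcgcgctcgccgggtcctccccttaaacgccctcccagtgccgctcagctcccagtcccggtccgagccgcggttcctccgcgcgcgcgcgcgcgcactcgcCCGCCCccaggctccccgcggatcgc
The STIM1 window holds 2 GC-box cores on its own strand and the ATP2B1 window holds 2 on the opposite strand, and 42.6% of the 35116 RefSeq windows of this length hold at least 1 on either strand. The TRPV6 window holds none, nor TATAAA, which 10.7% of windows hold. It also holds no vitamin D receptor half-site, searched on both strands as AGGTCA (12.1% of windows), AGTTCA (8.80%), GGGTCA (12.1%) and GGTTCA (7.16%), so no repeat of 2 of these with NNN between them, which 0.0655% of windows hold. These letters were searched in this window only. RefSeq entries matched 7 of the 10 members.

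TRPV6 was highest in HCT-8 cells and lower in the other 3 groups. The gene lies on the minus strand of chromosome 7 (GRCh38, 142871208 to 142885745). It was at 17.2 and 21.1 CPM in HCT-8 replicates 1 and 2, from 131 and 712 counts. In HCT-8/FU it was at 3.32 and 1.00 CPM, from 100 and 6 counts. Both HCT-8/FU libraries lay below every other library, and the lower one rests on 6 counts in the library with the fewest counts. With CM of HCT-8, TRPV6 was at 3.80 and 4.86 CPM, from 33 and 129 counts. With CM of HCT-8/FU, it was at 4.17 and 4.35 CPM, from 130 and 134 counts. The CM groups thus overlapped each other and lay above both HCT-8/FU libraries and below both HCT-8 libraries.

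As a log2 fold change, TRPV6 differed by -2.84 between HCT-8/FU and HCT-8 (SE 0.29), a fitted level 7.18-fold lower. Leaving out HCT-8/FU replicate 1 moved this value to -4.28, while leaving out any of the 3 other libraries of these groups put it between -2.97 and -2.55. Without the 3 poorly aligned libraries, which leaves 1 library in each of the groups HCT-8 and HCT-8/FU, it was -2.67. Against HCT-8 the value was -2.12 for CM of HCT-8 (SE 0.27) and -2.19 for CM of HCT-8/FU (SE 0.25), and these comparisons share the HCT-8 libraries. The CM groups differed by -0.07, and TRPV6 lay below HCT-8 in CM of either line, including the medium of HCT-8 cells themselves. In a fit that took out the trend of fold changes with GC content and length, the TRPV6 value for HCT-8/FU was -2.84. Of the exonic bases of TRPV6, 0.832% overlap a gene on the opposite strand, and the sources used here do not say whether the counting used strand.

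Per kilobase of exon, TRPV6 and CYP24A1 were the least abundant of the 9 members with counts. Mean levels over the 8 libraries, in CPM per kilobase of exon (RPKM), were 0.628 for TRPV6 and 0.413 for CYP24A1. ORAI1 (8.75), STIM1 (8.37), ATP2B1 (11.2), VDR (15.4) and ATP2B4 (15.6) lay between 8 and 16 RPKM. ANXA2 was at 34.6 RPKM and S100A10 at 276 RPKM. The length is that of all annotated exons of a gene joined, 11574 bases for ANXA2, 11903 for TRPV6 and 1012 for S100A10. The order of the members therefore depends on it in part. In mean CPM, ANXA2 (400) lay above S100A10 (280), while TRPV6 (7.47) and CYP24A1 (1.65) were again the lowest. CASR had 0 of 172931067 counts, which allows up to 0.00143 RPKM (3 counts over all libraries, counting error only).

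**Figure D1:**
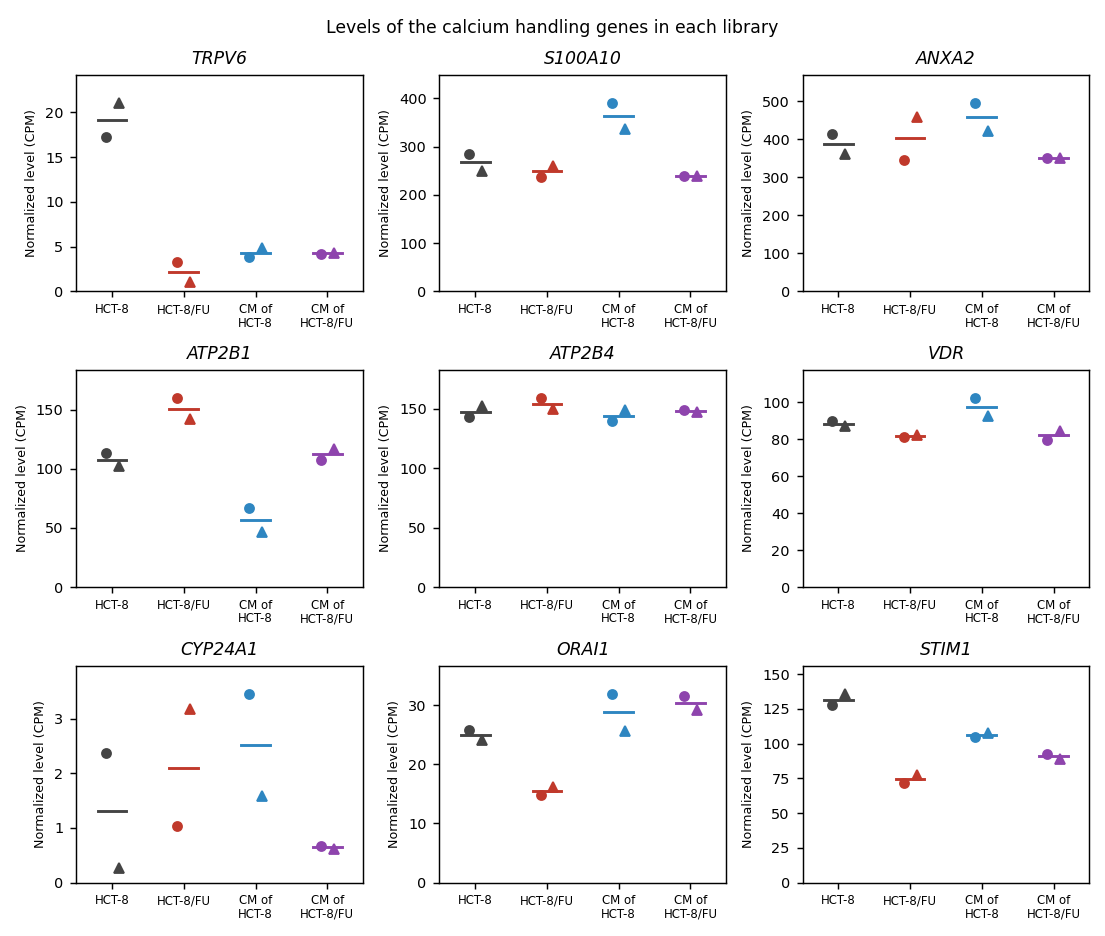
Level of each member in each library, in CPM on a linear axis from 0, by group, with the circle for replicate 1, the triangle for replicate 2 and the bar for their mean. TRPV6 is at 17.2 and 21.1 CPM in HCT-8 and at 1.00 to 4.86 CPM in the 6 other libraries, while STIM1 and ORAI1 are lowest in HCT-8/FU and ATP2B1 is lowest in CM of HCT-8.

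Members other than TRPV6 were tested in 4 comparisons with edgeR's quasi-likelihood test and Benjamini-Hochberg adjustment over the 20305 genes. A gene was called when its adjusted p was at most 0.05 and its absolute log2 fold change at least 0.58. In HCT-8/FU against HCT-8, 2 of the 8 other members tested were called, both lower, where 21.3% of all genes were called, 13.2% higher and 8.12% lower. Between the CM groups, 1 was higher (7.97% of all genes) and 1 lower (1.28%), against 9.25% of all genes called. Of the same 8, 1 was lower in CM of HCT-8 against HCT-8, beside 8.15% of all genes called and 4.29% called lower. No member was called in CM of HCT-8/FU against HCT-8 by edgeR or by DESeq2, against 10.4% of all genes, and 2 had an unadjusted p under 0.05, against 35.3% of all genes. Over these 8 genes the median log2 fold change in the 4 comparisons was -0.03, -0.24, 0.17 and -0.12, beside 0.0082, -0.059, 0.014 and 0.015 over all genes tested.

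Both partners of store-operated entry were lower in HCT-8/FU than in HCT-8. STIM1, the sensor in the endoplasmic reticulum, was at 128 and 136 CPM in HCT-8 and at 71.9 and 77.4 CPM in HCT-8/FU. With CM of HCT-8 it was at 105 and 108 CPM, and with that of HCT-8/FU at 92.5 and 89.0 CPM. No 2 groups overlapped, and the order from high to low was HCT-8, then the CM of HCT-8 group, then that of HCT-8/FU, then HCT-8/FU itself. Groups did not overlap for 65% of all tested genes in HCT-8/FU against HCT-8 and for 61.4% between the CM groups. The share was 54.3% for CM of HCT-8 and 65.7% for CM of HCT-8/FU, each against HCT-8. STIM1 fell by 0.83 on the log2 scale in HCT-8/FU (SE 0.080, edgeR Benjamini-Hochberg adjusted p = 1.28e-06), and was called with each of the 4 libraries left out in turn. The GC and length correction left it at -0.84, and it was -0.92 without the 3 poorly aligned libraries. The steps with CM were smaller than the fold threshold. STIM1 differed from HCT-8 by -0.31 in CM of HCT-8 (SE 0.078, edgeR Benjamini-Hochberg adjusted p = 0.011) and by -0.54 in CM of HCT-8/FU (SE 0.077, adjusted p = 0.00013). Without HCT-8 replicate 1 the second of these was -0.58 and passed the fold threshold. It differed between the CM groups by -0.23 (SE 0.077, edgeR Benjamini-Hochberg adjusted p = 0.0499).

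ORAI1, the pore that STIM1 opens, was at 25.8 and 24.1 CPM in HCT-8 and at 14.8 and 16.2 CPM in HCT-8/FU. It was at 31.9 and 25.6 CPM in CM of HCT-8 and at 31.6 and 29.1 CPM in CM of HCT-8/FU. HCT-8/FU lay below all other groups, and the CM groups overlapped each other. ORAI1 fell by 0.70 on the log2 scale in HCT-8/FU (SE 0.14, edgeR Benjamini-Hochberg adjusted p = 0.0008) and was called with each of the 4 libraries left out. Without the 3 poorly aligned libraries the value was -0.71. Over all 8 libraries it moved to -0.50 with the GC and length correction (edgeR Benjamini-Hochberg adjusted p = 0.033), which is under the fold threshold. ORAI1 exons are 56.7% GC, against a median of 49.0% over the genes tested. ORAI1 differed between the CM groups by 0.10 (95% interval -0.16 to 0.36).

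Whether the difference between the lines was larger than that between their CM was tested as an interaction. It called ORAI1 and STIM1, 2 of the 8 members tested, beside 7.69% of all genes. For ORAI1 the difference of the log2 fold changes was -0.80 (SE 0.18, edgeR Benjamini-Hochberg adjusted p = 0.0096). It lost its call without HCT-8/FU replicate 1 (-0.72, adjusted p = 0.071 by edgeR) or without CM of HCT-8/FU replicate 1 (-0.74, adjusted p = 0.065 by edgeR). For STIM1 it was -0.60 (SE 0.11, edgeR Benjamini-Hochberg adjusted p = 0.0024). It fell under the fold threshold without HCT-8/FU replicate 1 (-0.55) and with the GC and length correction (-0.57). S100A10, ANXA2, ATP2B1, ATP2B4, VDR and CYP24A1 were not called in this test.

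Of the plasma membrane calcium pumps, ATP2B1 was called in 2 of the 4 comparisons and ATP2B4 in none of them by edgeR or DESeq2. ATP2B1, the widely used pump that also serves calcium exit in the intestine, was at 113 and 102 CPM in HCT-8 and at 159 and 142 CPM in HCT-8/FU. It was at 66.6 and 46.1 CPM in CM of HCT-8 and at 108 and 117 CPM in CM of HCT-8/FU. CM of HCT-8 lay below all other groups, and CM of HCT-8/FU overlapped HCT-8. ATP2B1 rose by 1.03 on the log2 scale between the CM groups (SE 0.13, edgeR Benjamini-Hochberg adjusted p = 4.27e-05), and was called with each of the 4 libraries left out. The same CM of HCT-8 libraries put ATP2B1 at -0.96 against HCT-8 (SE 0.13, edgeR Benjamini-Hochberg adjusted p = 0.00016), called again with each of the 4 libraries left out. Without the 3 poorly aligned libraries, which leaves 1 library each in HCT-8 and CM of HCT-8, these values were 1.28 and -1.14. In HCT-8/FU against HCT-8 it was higher by 0.50 (SE 0.13, edgeR Benjamini-Hochberg adjusted p = 0.0056), under the fold threshold, and past it with another TMM scaling reference (0.59) or without the 3 poorly aligned libraries (0.64).

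ATP2B1 exons are 38.3% GC, and across 19857 genes the log2 fold change ran with GC content. Spearman's rho across genes, which are not independent replicates, was -0.397 in HCT-8/FU against HCT-8, -0.398 between the CM groups, 0.301 for CM of HCT-8 and -0.142 for CM of HCT-8/FU, each against HCT-8. With the GC and length correction ATP2B1 differed by 0.44 between the CM groups (edgeR Benjamini-Hochberg adjusted p = 0.039, under the fold threshold). It differed by -0.10 between the lines (edgeR Benjamini-Hochberg adjusted p = 0.58), and stayed called at -0.68 in CM of HCT-8 against HCT-8. The part of GC content in the ATP2B1 differences was not tested beyond this correction.

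ATP2B4, a second plasma membrane pump, had nearly level values. It was at 143 and 152 CPM in HCT-8, 159 and 150 CPM in HCT-8/FU, 140 and 149 CPM in CM of HCT-8 and 149 and 147 CPM in CM of HCT-8/FU. HCT-8/FU overlapped HCT-8, and CM of HCT-8/FU overlapped both CM of HCT-8 and HCT-8. The 95% interval of its log2 fold change was -0.094 to 0.23 in HCT-8/FU against HCT-8 and -0.12 to 0.19 between the CM groups, which leaves out the fold threshold in both directions.

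S100A10 and ANXA2 form a complex that binds TRPV6 and helps to bring it to the plasma membrane. S100A10 was at 286 and 249 CPM in HCT-8 and at 237 and 260 CPM in HCT-8/FU. It was at 391 and 337 CPM in CM of HCT-8, and at 238 and 239 CPM in CM of HCT-8/FU. CM of HCT-8 was above all other groups, which overlapped in part. S100A10 fell by 0.60 on the log2 scale between the CM groups (SE 0.087, edgeR Benjamini-Hochberg adjusted p = 0.00015), close to the fold threshold. It fell short of 0.58 when CM of HCT-8 replicate 1 was left out (-0.49), which is 1 of the 3 poorly aligned libraries, and without HCT-8 replicate 2 (-0.55), the reference of the scaling. With DESeq2's size factors or no filter it was at -0.57, on the compared groups only at -0.51, and without the 3 poorly aligned libraries at -0.50. It was higher in CM of HCT-8 than in HCT-8 by 0.45 (SE 0.088, edgeR Benjamini-Hochberg adjusted p = 0.0024), under the fold threshold. The summed level of the intestinal epithelial markers was also highest in CM of HCT-8, at 9737 to 10637 CPM. It was 8553 to 8968 CPM in the other 3 groups. The sum does not show how most markers moved. Against HCT-8, the median log2 fold change of the 10 markers was 0.602 in CM of HCT-8. It was 0.405 in CM of HCT-8/FU and 0.454 between the lines. Over all genes tested these medians were 0.014, 0.015 and 0.0082. In that order 4, 3 and 4 markers were called higher and 0 lower. The shares of all genes were 3.86%, 7.16% and 13.2% called higher and 4.29%, 3.28% and 8.12% called lower. S100A10 differed from HCT-8 by -0.16 in CM of HCT-8/FU and by -0.10 between the lines. The part of the markers in the S100A10 values was not tested.

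ANXA2, the annexin of this complex, was at 413 and 362 CPM in HCT-8, 347 and 459 CPM in HCT-8/FU, 496 and 421 CPM in CM of HCT-8 and 352 and 352 CPM in CM of HCT-8/FU. The HCT-8/FU libraries spanned all of HCT-8, so these groups overlapped, while CM of HCT-8/FU lay below CM of HCT-8. ANXA2 differed between the CM groups by -0.38 (SE 0.11, edgeR Benjamini-Hochberg adjusted p = 0.026), under the fold threshold, and by -0.66 with the GC and length correction (adjusted p = 0.0062 by edgeR), past it. ANXA2 reads can be shared with its processed copies. ANXA2P2 was at 16.9 to 24.2 CPM, ANXA2P1 had 0 to 9 counts a library and ANXA2P3 had 0, so the ANXA2 values are uncertain by what was assigned to the copies.

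VDR, the nuclear receptor for active vitamin D, was at 89.9 and 87.0 CPM in HCT-8 and at 81.1 and 82.2 CPM in HCT-8/FU. It was at 102 and 92.9 CPM in CM of HCT-8 and at 79.7 and 84.6 CPM in CM of HCT-8/FU. HCT-8/FU lay just below HCT-8, and for 65% of all tested genes the libraries of these groups did not overlap. The 95% interval of the VDR log2 fold change was -0.29 to 0.064 in HCT-8/FU against HCT-8. VDR differed between the CM groups by -0.24 (SE 0.080, edgeR Benjamini-Hochberg adjusted p = 0.046), under the fold threshold.

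CYP24A1, the vitamin D 24-hydroxylase, was at 2.37 and 0.266 CPM in HCT-8 and at 1.03 and 3.18 CPM in HCT-8/FU. It was at 3.45 and 1.58 CPM in CM of HCT-8 and at 0.674 and 0.616 CPM in CM of HCT-8/FU. These levels rest on 9 to 42 counts a library, and the replicates of HCT-8 differed more than the group means did. In each of the 3 groups with a poorly aligned library, that library was the higher. The lower level in CM of HCT-8/FU than in CM of HCT-8 was -1.87 on the log2 scale (SE 0.75, edgeR Benjamini-Hochberg adjusted p = 0.098). It passed with no filter (-1.84, adjusted p = 0.0032 by edgeR) and on the compared groups only (-1.76, adjusted p = 0.046 by edgeR). It also passed without CM of HCT-8 replicate 2 (-2.41) or HCT-8 replicate 1 (-1.86), fits that leave 1 library in that group. In HCT-8/FU against HCT-8 the value was 0.90 (95% interval -0.92 to 2.72). It went from -0.47 without HCT-8 replicate 2 to 2.71 without HCT-8 replicate 1, and either fit leaves 1 HCT-8 library. Without the 3 poorly aligned libraries it was 1.93 and the value between the CM groups was -1.29. That fit leaves 1 library in 3 groups and takes their spread from CM of HCT-8/FU, so only the values are given.

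**Figure D2:**
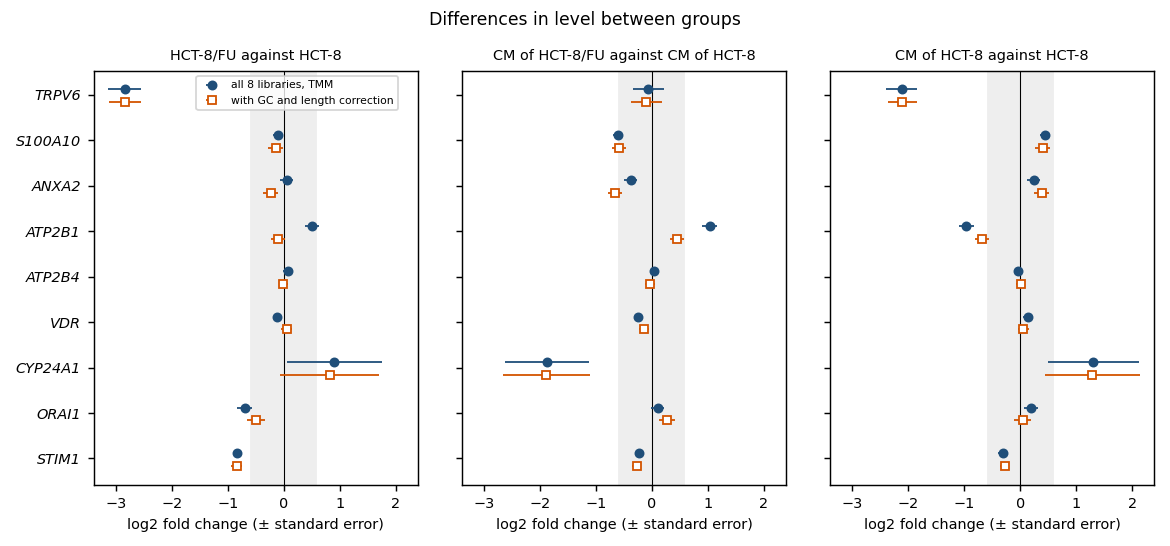
Log2 fold change of each member with its standard error in 3 comparisons, as fitted over all 8 libraries (filled circles) and with the GC and length correction (open squares), with the band under the fold threshold of 0.58 in grey. STIM1 is at -0.83 and -0.84 in HCT-8/FU against HCT-8 under the plain and the corrected fit, while ATP2B1 goes from 1.03 to 0.44 between the CM groups, and TRPV6 is shown without a test.

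Of the members, STIM1 followed TRPV6 most closely over the 8 libraries, with a Pearson correlation of 0.864 on log2 CPM, and ORAI1 came next at 0.386. Among all genes compared, these correlations lay at percentile 93.6 for STIM1 and 64.1 for ORAI1. Among the 12500 genes whose mean reached 5 CPM, the 5 most like TRPV6 were NFIL3 (0.993), KATNIP (0.990), FBLIM1 (0.990), MBD1 (0.987) and PRDM16 (0.987). NFIL3, a basic leucine zipper transcription factor, had a mean of 21.9 CPM in HCT-8, 8.76 CPM in HCT-8/FU, 12.5 CPM in CM of HCT-8 and 13.1 CPM in CM of HCT-8/FU. PRDM16, a transcriptional regulator, had 31.4, 14.8, 19.5 and 20.6 CPM in the same order. All points share their library, depth and scaling, and 8 libraries in 4 groups leave few independent points, so these are descriptions.

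The other genes of calcium handling were taken from 6 lists of 66 genes, of which 56 passed the filter. In HCT-8/FU against HCT-8, 8 of them were higher and 9 lower, beside 13.2% and 8.12% of all genes. With the GC and length correction the split was 4 higher and 12 lower, beside 7.29% and 7.95% of all genes. With another TMM scaling reference it was 8 and 4, beside 3166 and 1192 of all 20305 genes (2677 and 1648 in the main fit). Between the CM groups, 3 were higher and 5 lower, beside 7.97% and 1.28% of all genes. That split was 1 and 3 with the correction (2.71% and 2.13% of all genes). It was 3 and 2 with DESeq2's size factors, beside 1698 and 165 of all genes (1619 and 259 in the main fit). With the other reference it was 3 and 1, beside 1845 and 126. In CM of HCT-8 against HCT-8, 4 were higher and 3 lower, beside 3.86% and 4.29% of all genes (783 and 872). This was 2 and 2 with the correction (2.74% and 2.69%). It was 2 and 4 with DESeq2's size factors (617 and 1088 of all genes) and 3 and 3 with the other reference (751 and 904). In CM of HCT-8/FU against HCT-8, 4 were higher and 4 lower, beside 7.16% and 3.28% of all genes. The correction made this 2 and 8 (4.03% and 4.79% of all genes). The other reference made it 5 and 1, beside 1856 and 430 of all genes (1454 and 666 in the main fit). Which direction held more of the listed genes thus changed with the scaling or the correction, and the counts over all genes moved with these settings too.

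Among 14 other genes of store-operated entry and endoplasmic reticulum calcium, HCT-8/FU had 3 called higher and 1 called lower, beside 13.2% and 8.12% of all genes. The list's median log2 fold change was -0.19, beside 0.0082 over all genes tested. With the GC and length correction 2 were higher and 3 lower (7.29% and 7.95% of all genes). The median was then -0.36, beside -0.025 over all genes. Between the CM groups 2 were called, both higher, beside 7.97% of all genes called higher and 1.28% lower. With the correction 1 was higher and 1 lower (2.71% and 2.13% of all genes). ITPR2, a calcium release channel gated by inositol trisphosphate, was at 10.3 to 12.8 CPM in HCT-8 and 33.4 to 33.5 CPM in HCT-8/FU. It was at 7.14 to 7.65 CPM in CM of HCT-8 and 22.0 to 22.5 CPM in CM of HCT-8/FU. So ITPR2 was higher with HCT-8/FU in both settings, with no overlap, as for 65% and 61.4% of all tested genes in either direction. It rose by 1.58 in HCT-8/FU (SE 0.14, edgeR Benjamini-Hochberg adjusted p = 4.65e-07) and by 1.58 between the CM groups (SE 0.14, edgeR Benjamini-Hochberg adjusted p = 1.99e-06). Both stayed called with the GC and length correction, at 1.13 and 1.12, and with each library left out in turn.

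TRPC1, a cation channel linked to store-operated entry, rose by 1.00 in HCT-8/FU (SE 0.17, edgeR Benjamini-Hochberg adjusted p = 0.00032) and by 0.96 between the CM groups (SE 0.17, adjusted p = 0.0011). Both fell under the fold threshold with the GC and length correction (0.52 and 0.53). STIM2, the second sensor of the STIM family, was at 17.6 to 25.4 CPM in HCT-8 and 42.5 to 43.3 CPM in HCT-8/FU, opposite to STIM1. It rose by 0.93 (SE 0.14, edgeR Benjamini-Hochberg adjusted p = 8.28e-05), and by 0.69 with the correction, still called. SARAF, which shuts store-operated entry down, fell by 0.61 (SE 0.081, edgeR Benjamini-Hochberg adjusted p = 2.78e-05). SARAF was under the fold threshold without HCT-8 replicate 1 (-0.57), and likewise when HCT-8/FU replicate 2 was left out (-0.58). It was also under it with another TMM scaling reference (-0.52) and without the 3 poorly aligned libraries (-0.52).

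Of 16 other S100 and annexin genes, HCT-8/FU had 1 called higher and 6 called lower, beside 13.2% and 8.12% of all genes. The list's median log2 fold change was -0.52, beside 0.0082 over all genes tested. With the GC and length correction 1 was higher and 5 lower (7.29% and 7.95% of all genes), and the median was -0.45. With another TMM scaling reference only 4 genes of all 6 lists were called lower (1192 of all 20305 genes), so fewer of this list were. S100P, a secreted calcium-binding protein, was at 163 to 185 CPM in HCT-8 and 82.9 to 88.9 CPM in HCT-8/FU, and at 171 to 241 CPM in CM of HCT-8 and 107 to 109 CPM in CM of HCT-8/FU. It was lower with HCT-8/FU in both settings. S100P fell by 1.01 between the lines (SE 0.13, edgeR Benjamini-Hochberg adjusted p = 1.61e-05) and by 0.92 between the CM groups (SE 0.12, edgeR Benjamini-Hochberg adjusted p = 6.73e-05), and stayed called with the correction at -0.90 and -0.82. S100A11 fell by 0.86 (SE 0.12, edgeR Benjamini-Hochberg adjusted p = 5.11e-05) and ANXA5, an annexin that binds phosphatidylserine, by 0.67 (SE 0.082, adjusted p = 1.18e-05) in HCT-8/FU. ANXA5 was under the fold threshold without HCT-8 replicate 1 (-0.57).

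S100A4, a regulator of cell motility, went the other way, from 180 to 185 CPM in HCT-8 up to 328 to 370 CPM in HCT-8/FU. It rose by 0.93 (SE 0.074, edgeR Benjamini-Hochberg adjusted p = 2.30e-07), and by 1.08 with the correction. The CM of HCT-8 libraries had it at 379 to 383 CPM and those of CM of HCT-8/FU at 295 to 297 CPM, above HCT-8 in both. Between the CM groups 4 genes of this list were called lower, S100P, S100A2, S100A6 and S100A11, beside 1.28% of all genes. With the GC and length correction S100P was the only one called, beside 2.13% of all genes called lower. S100A11 was at -0.59 there (SE 0.12, edgeR Benjamini-Hochberg adjusted p = 0.0021), and at -0.50 with the correction. S100A6 fell by 0.66 (SE 0.092, edgeR Benjamini-Hochberg adjusted p = 0.00011), and went below 0.58 when CM of HCT-8 replicate 1 was left out (-0.56) and with the correction (-0.56). S100A2 was at 1.84 to 5.18 CPM and fell by 0.84 (SE 0.28, edgeR Benjamini-Hochberg adjusted p = 0.046). That call was lost in 3 of the 4 fits that left out a library of these groups, and with the correction (-0.71, adjusted p = 0.13 by edgeR). Over all alternatives but the adjusted p alone, the S100A2 call was lost in 15 and kept in 4.

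**Figure D3:**
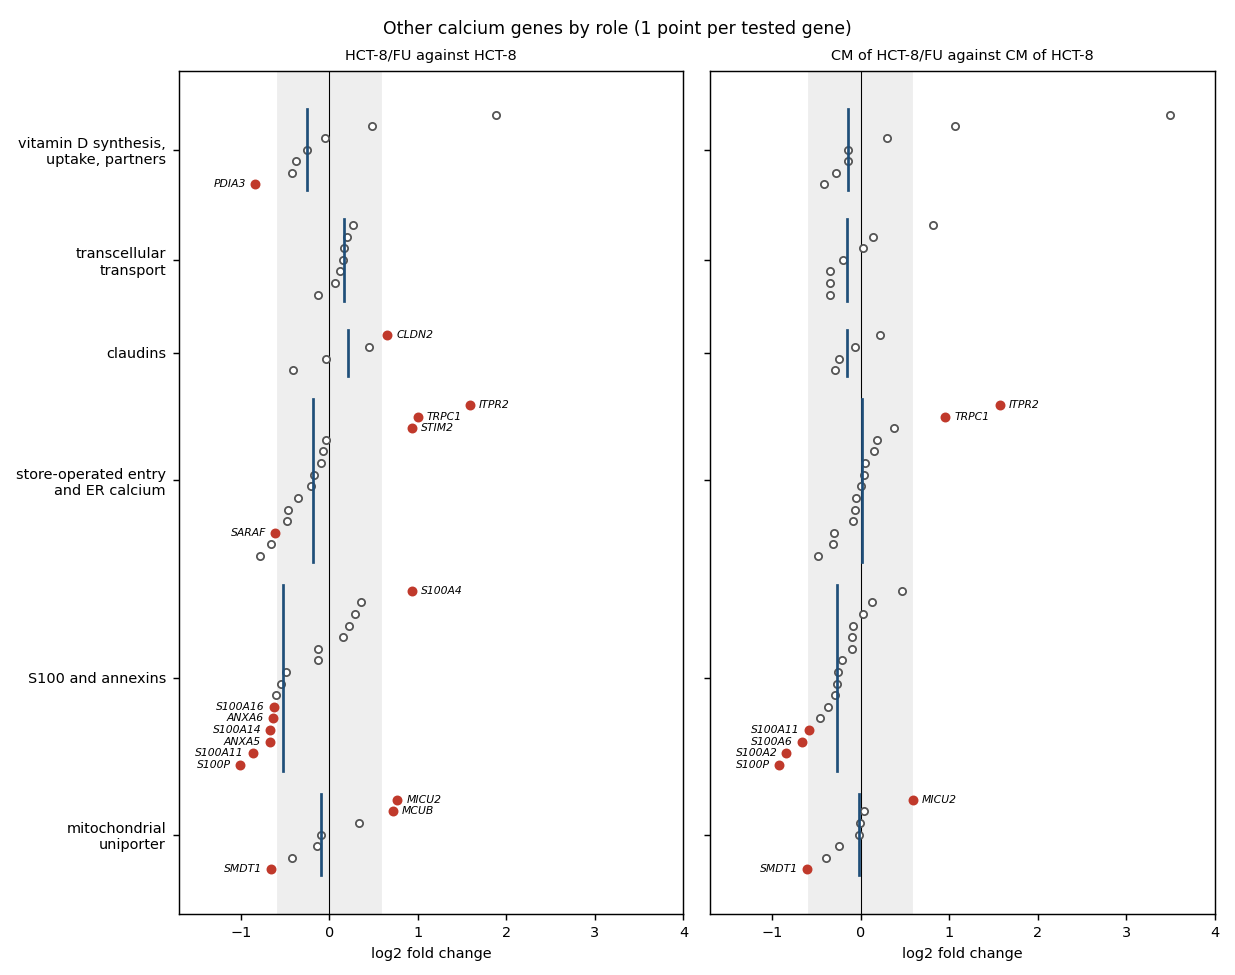
Log2 fold change of the tested genes of the 6 calcium lists, all but 1 of the 56, in HCT-8/FU against HCT-8 (left) and between the CM groups (right), 1 point per gene, with called genes filled and named, the median of the whole list as a line and the band under the fold threshold in grey. ITPR2 stands at 1.58 in both panels. The S100 and annexin genes have 6 of 16 called lower on the left and 4 of 16 on the right, beside 8.12% and 1.28% of all genes. With the GC and length correction these counts were 5 and 1. With another TMM scaling reference, 4 and 1 genes of all 6 lists were called lower, beside 1192 and 126 of all 20305 genes.

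Of 4 claudins linked to paracellular calcium passage, CLDN2, a claudin that forms cation pores, was higher in HCT-8/FU by 0.66 (SE 0.092, edgeR Benjamini-Hochberg adjusted p = 4.59e-05). CLDN2 was at 39.4 to 40.3 CPM in HCT-8 and 58.7 to 66.0 CPM in HCT-8/FU, and it was under the fold threshold without HCT-8/FU replicate 1 (0.55). CLDN2 was also high in CM of HCT-8, at 63.0 to 64.3 CPM, and at 53.7 to 53.8 CPM in CM of HCT-8/FU, so HCT-8 was the lowest of the 4 groups.

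Of 7 tested genes of vitamin D synthesis, uptake and receptor partners, 1 was called in HCT-8/FU, beside 21.3% of all genes. PDIA3 fell by 0.84 (SE 0.073, edgeR Benjamini-Hochberg adjusted p = 4.67e-07), from 2135 to 2305 CPM down to 1205 to 1274 CPM. PDIA3 is listed as a membrane partner of vitamin D but is mainly a protein disulfide isomerase of the endoplasmic reticulum. Of 7 genes of the mitochondrial calcium uniporter, MICU2, a gatekeeper subunit, rose by 0.77 in HCT-8/FU (SE 0.13, edgeR Benjamini-Hochberg adjusted p = 0.00023) and was at 0.27 and not called with the correction. MCUB, the inhibitory pore subunit, rose by 0.72 (SE 0.17, edgeR Benjamini-Hochberg adjusted p = 0.0032) and was likewise not called with the correction, at 0.27, nor without HCT-8/FU replicate 1 (0.66). SMDT1, the subunit that couples the gatekeepers to the pore, fell by 0.66 (SE 0.15, edgeR Benjamini-Hochberg adjusted p = 0.0025) and stayed called with the correction at -0.61. It lost its call without HCT-8/FU replicate 1 (-0.57) and with another TMM scaling reference (-0.565). Between the CM groups MICU2 was at 0.59 and SMDT1 at -0.60, both near the fold threshold. Neither was called with the correction, at 0.17 (adjusted p = 0.47 by edgeR) for MICU2 and -0.50 (adjusted p = 0.052 by edgeR) for SMDT1. There MICU2 was under it when replicate 2 of either CM group was left out (0.32 for CM of HCT-8, 0.56 for the other). SMDT1 was under it when replicate 1 of either CM group was left out (-0.49 for CM of HCT-8, -0.53 for the other).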

How the data were processed

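The authors aligned reads to GRCh38 with HISAT2, sorted them with SAMtools 1.18, and deposited the raw count of reads per Ensembl gene that HTSeq 0.11.2 gave for every library. Their tables of their own DESeq2 1.30.0 comparisons (fold changes, standard errors, p-values, a Wald statistic and mean normalized counts) were not used. Groups and replicate numbers came from the sample titles.

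Lines that name no gene stayed out of library sizes: no feature was 33.7% to 49.6%, ambiguous 1.15% to 1.57%, low quality 2.20% to 5.77%, not aligned 3.58% to 29.6% and not unique 2.24% to 3.48% of a library's records. Counts were scaled by TMM (reference HCT-8 replicate 2), filtered by filterByExpr, and fitted with 4 group means over all 8 libraries by edgeR 4.0.16 in R 4.3.3. CPM divides by the scaled library size, and RPKM also by the exonic length in GENCODE 44 (GRCh38). Alternatives were DESeq2 1.42.0, its size factors, no or a stricter filter, only the groups compared, a replicate block, a term for the 3 poorly aligned libraries, the adjusted p alone and each library left out. The GC and length correction fits splines with 5 degrees of freedom to each library's log counts. Scripts were tested on simulated data. Replicates differed beyond sampling noise in every group. Members, lists, tests and alternatives were chosen with earlier results of these data known. The genes named were the members, up to 3 called genes a list and direction with the largest changes in HCT-8/FU against HCT-8 and between the CM groups, the 5 genes most like TRPV6 and the copies of ANXA2, save 1 called gene that is not reported here. All 66 listed genes matched a count line. Medium names differ between the labels and the methods and are not given.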

Additional observations from a re-analysis of the deposited data

Results flagged for a closer look

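ORAI1 and STIM1 of store-operated entry differed between the 2 settings. The log2 fold change of ORAI1 in HCT-8/FU against HCT-8 minus that between the CM groups (CM of HCT-8/FU relative to the CM from HCT-8) was -0.797 by the interaction term (edgeR Benjamini-Hochberg adjusted p = 0.0096), from -0.70 and 0.10. For STIM1 the same difference was -0.603 (edgeR Benjamini-Hochberg adjusted p = 0.0024), from -0.83 and -0.23. The calls lost when a library was left out stand beside these values in the report.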

How the results depend on the processing

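Each group had 2 libraries, so 1 library can decide a value near the fold threshold, and the 3 poorly aligned libraries are also the smallest. Fits without them leave 1 library in 3 groups, which are assumed to vary like CM of HCT-8/FU. That fit and the other TMM reference were added after the data were seen. Counts below are for HCT-8/FU against HCT-8, then between the CM groups, then for CM of HCT-8 and for CM of HCT-8/FU, each against HCT-8, where they moved by over 1.5 times. The causes were not tested.

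With the adjusted p alone, 7442, 4005, 3949 and 5017 genes were called, and 32, 21, 21 and 23 of the calcium list genes. Members were then 5 between the CM groups, and 3 and 1 for the CM groups against HCT-8. With the GC and length correction, 982 genes were called between the CM groups and 1103 in the third comparison, and 4 list genes in each. Then 1 member was called in HCT-8/FU and 1 in the difference of the comparisons. Adding the replicate block to the correction gave 924 and 1048 genes, 4 and 4 list genes, and 1 and 1 members. The replicate numbers did not pair the samples (correlations of deviations -0.123 to 0.132), and the block alone gave 4180, 1816, 1595 and 2052 genes and 2, 2, 1 and 0 members. It ended the call of S100A2 between the CM groups (-0.85, edgeR adjusted p = 0.053). Only 1 member was called between the CM groups with DESeq2 size factors, with DESeq2 on 4 groups, with the term for poorly aligned libraries and with the other TMM reference. CYP24A1 was called there in place of S100A10 with no filter and on the compared groups only, so the count stayed at 2. List genes there were 5 with DESeq2 size factors, DESeq2, the compared groups only or without the 3 libraries, and 4 with the term or the other reference. The term gave 2 members in CM of HCT-8 and 3 list genes in CM of HCT-8/FU against HCT-8. Without the 3 libraries these were 2 and 3, and members were 4 in HCT-8/FU and 4 in the difference. The difference was not fitted on the compared groups only.

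With 1 library left out, members called were 2 to 3, 1 to 3, 1 to 2, 0 to 1 and, in the difference, 1 to 4. List genes were 14 to 17, 4 to 8, 5 to 7 and 3 to 10. Genes were 3701 to 4632, 1443 to 2052, 1274 to 1832 and 1536 to 2409.

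The tallies of values that follow leave out the setting of the adjusted p alone. Of the members' values other than TRPV6 under the remaining alternatives, 575 kept their direction and call, 18 lost and 15 gained one. A further 36 changed sign, none of them called under the main setting. Of the values of the called list genes that the text names, save S100A11 between the CM groups, 325 kept their call and 55 lost it. The sign changes with the GC and length correction, and with the block added, were as follows. In HCT-8/FU against HCT-8, VDR went to 0.051 and 0.049, ATP2B1 to -0.10 and -0.11, ATP2B4 to -0.011 and -0.010, and ANXA2 to -0.23 and -0.23. ATP2B4 went to -0.035 and -0.035 between the CM groups, to 0.010 and 0.010 in the third comparison, and to -0.025 and -0.024 in the fourth. ATP2B1 went to -0.24 and -0.24 in the last. With the term for poorly aligned libraries, ATP2B4 went to -0.0053 between the CM groups and to -0.036 in CM of HCT-8/FU against HCT-8, and CYP24A1 to 0.49 in the latter. Without the 3 libraries these were -0.0063, -0.037 and 1.27, and ANXA2 was -0.069 in HCT-8/FU. ATP2B4 in CM of HCT-8/FU against HCT-8 was -0.0080 with DESeq2 size factors and -0.0083 with DESeq2. With 1 library left out, in HCT-8/FU CYP24A1 ran from -0.47 to 2.71 and ANXA2 from -0.16 to 0.24. ATP2B4 ran between the CM groups from -0.0051 to 0.096 and ORAI1 from -0.067 to 0.24. In CM of HCT-8 CYP24A1 ran from -0.079 to 3.12 and ATP2B4 from -0.086 to 0.0074. In CM of HCT-8/FU against HCT-8 CYP24A1 ran from -1.88 to 1.26, ATP2B1 from -0.018 to 0.14 and ATP2B4 from -0.038 to 0.045.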
